A study of Mus musculus with 2 samples.

Results

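Retnla and the chitinase-like proteins were described in single cells of mouse lung organoids grown with or without the inflammatory cytokine interleukin-1β (IL-1β). The 4 genes, Retnla, Chil1, Chil3 and Chia1, were found by their symbols among the 27998 genes of the files. They were chosen on measured values of these same libraries, the share of cells with a transcript and the level by cell class, so the levels below are descriptions without a test. The organoids came from alveolar type 2 (AT2) cells of tamoxifen-treated SPC-CreERT2;R26RTomato mice of the C57BL/6 strain, in which the surfactant protein C (SPC) promoter drives Cre and labels the AT2 lineage. The labelled cells were grown in Matrigel together with cultured lung stromal cells that had been depleted of CD31, EpCAM and CD45-positive cells. The labels give 2 weeks of culture, whereas the study's text gives a later day of collection for these organoids. Control organoids received PBS and the others IL-1β, and both groups shared the reporter allele, the tamoxifen and the stromal cells. Each group was 1 library of droplet-based scRNA-seq, and no source used here ties a library to a number of mice.

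Retnla encodes resistin-like molecule α, also called FIZZ1, a small secreted protein known as a hallmark of type 2 immune responses and of alternatively activated macrophages. The glycosyl hydrolase 18 family holds true chitinases, such as the acidic mammalian chitinase encoded by Chia1, and chitinase-like proteins that bind chitin or other sugars but lack the catalytic residue. Chil1 encodes one of these, chitinase-3-like protein 1 (BRP-39), a secreted protein of inflamed epithelium and macrophages, and Chil3 encodes Ym1, a protein of alveolar macrophages and of type 2 inflammation.

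The stretch of coding sequence that separates the chitinase from its relatives is shown for 3 members. Of these, Chil1 and Chia1 had levels that went in different directions, and Chil3 was hardly detected. The capitals mark the codon of the catalytic glutamate of Chia1 and the codon at the same place in the others, each in exon 5 of the GENCODE M21 transcript, read 5′ to 3′ on the coding strand of GRCm38. The Chia1 window is chr3:106122445-106122495 on the plus strand, that of Chil1 is chr1:134185228-134185278 on the plus strand, and that of Chil3 is chr3:106160404-106160454 on the minus strand.
Chia1: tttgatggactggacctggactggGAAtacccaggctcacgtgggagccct
Chil1: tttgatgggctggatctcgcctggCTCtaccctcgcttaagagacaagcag
Chil3: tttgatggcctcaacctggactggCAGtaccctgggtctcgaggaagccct
The codon in capitals was GAA in Chia1, CTC in Chil1 and CAG in Chil3, so it encoded the catalytic residue in Chia1 only. Chil1 (ENSMUSG00000064246) spans chr1:134182176-134190181, Chia1 (ENSMUSG00000062778) spans chr3:106113229-106132120, and Retnla (ENSMUSG00000061100) spans chr16:48842551-48844461, all on the plus strand. Chil3 (ENSMUSG00000040809) spans chr3:106147554-106167564 on the minus strand. Its neighbor Chil4 has 94.4% of aligned coding bases in common with it. Whether the counting tells reads from the pair apart was not tested.

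The upstream sequence is shown for Chil1 and Retnla, the 2 members whose level was higher in IL-1β-treated AT2-like cells. Each run ends before the gene starts in GENCODE M21 and comes from the RefSeq promoter table for GRCm38.p6. The Chil1 run is chr1:134181906-134182155 and the Retnla run is chr16:48842359-48842550, both on the plus strand. Capitals mark matches on either strand to TTCNNNNGAA, a STAT motif, to TTGCNNAA, a C/EBP motif, or to GGGNNNNNCC, an NF-κB motif.
Retnla upstream: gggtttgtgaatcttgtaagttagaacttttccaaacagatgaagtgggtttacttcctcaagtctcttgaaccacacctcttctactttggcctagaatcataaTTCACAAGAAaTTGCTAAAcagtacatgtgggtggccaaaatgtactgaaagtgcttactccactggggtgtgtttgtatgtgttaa
Chil1 upstream: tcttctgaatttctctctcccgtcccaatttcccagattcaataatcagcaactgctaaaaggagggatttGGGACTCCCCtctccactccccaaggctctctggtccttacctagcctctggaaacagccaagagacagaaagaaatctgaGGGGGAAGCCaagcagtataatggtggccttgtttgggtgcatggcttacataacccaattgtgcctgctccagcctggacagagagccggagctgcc
In Retnla the STAT match starts at -145 and the C/EBP match at -134 from the RefSeq start site, without overlap. In Chil1 the NF-κB matches start at -179 and -98, and the first matches on both strands. Chil3, which was hardly detected in either library, has an NF-κB match at -231, and Chia1 has none of these motifs. Over the 250 bases upstream of all 32851 RefSeq start sites, 5.85% held the STAT motif, 9.56% the C/EBP motif and 45.8% the NF-κB motif. A match is a description of the letters and no factor binding was measured in these libraries.

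The control library held 33965848 unique molecular identifiers (UMIs, each a captured transcript molecule) in 2101 barcodes, and the IL-1β library 41220175 in 3066. After the filter on cells 2083 control and 3059 IL-1β cells remained, of which 1285 and 2581 were epithelial. The 2 libraries had 11 barcodes in common. Cells were classed from clusters by markers, and "-like" means that a class rests on those markers. The 8 AT2 markers were each at 10 UMIs per 1000000 (CPM) or more in AT2-like cells, but also in stromal cells of both libraries. Their summed level was 129319 CPM in control and 93052 CPM in IL-1β AT2-like cells. In AT1-like cells it was 40475 and 23461 CPM, and in stromal cells 4900 and 6023 CPM. The 9 AT1 markers summed to 18317 and 11481 CPM in AT1-like cells, against 1699 and 1120 CPM in AT2-like cells. There were 908 control and 2164 IL-1β AT2-like cells, 260 and 369 AT1-like cells, and 794 and 478 stromal cells. Different clusters made up the AT2-like class in the 2 libraries. In the control these were E0, led by Bex2, and E8, led by Scgb1a1, and under IL-1β these were E1, led by Gstm1, E2, led by Slc26a4, E3, with Ero1l and Bnip3 among its leading genes, and E4, led by Cxcl5. E3 scored above its AT2 score on markers of damage-associated transient progenitors (DATPs), the cells between AT2 and AT1 cells. Each AT2-like and AT1-like cluster lay almost wholly in 1 library, so condition and library preparation cannot be told apart.

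Chil1 was the member with the broadest presence and its level was higher in the IL-1β library in each class compared. In AT2-like cells it was 3158 CPM in the control (exact Poisson 95% interval 3128 to 3189) and 10401 CPM under IL-1β (10361 to 10441). The ratio was 3.29 (exact 95% interval 3.26 to 3.33), or 1.72 on the log2 scale, where the median of all genes was 0.14. All intervals here cover counting error only, since each condition had 1 library. Chil1 transcripts made up 0.316% of the UMIs of control AT2-like cells and 1.04% of those of IL-1β-treated AT2-like cells. Of the 3 members with at least 100 UMIs in AT2-like cells, Chil1 and Retnla passed 2-fold higher, against 7.76% of the 10429 genes compared, and Chia1 passed 2-fold lower, against 2.44%. Since the members were chosen on these values, nothing is read from that count.

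Chil1 was found in almost each AT2-like cell, so the difference was one of level per cell. At least 1 UMI was found in 907 of 908 control AT2-like cells and in all 2164 under IL-1β. The median cell had 26.2 Chil1 UMIs per 10000 in the control, with 5.80 at the 5th and 64.9 at the 95th percentile. Under IL-1β the median cell had 88.9 per 10000, with 20.7 at the 5th and 204.7 at the 95th percentile. The median IL-1β-treated cell was above the 95th percentile of the control cells, although the ranges overlapped.

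Among the IL-1β clusters Chil1 was highest in E4, at 14369 CPM, and lowest in E3, at 6831 CPM. E1 and E2 lay between them, at 10469 and 10090 CPM. The lowest of these was still above E0, the main control cluster, at 3186 CPM, and E8, at 1622 CPM. A small group of 13 control cells fell into E2, the cluster filled by the IL-1β library, and these had 8925 CPM (8543 to 9320). Their median was 102.7 UMIs per 10000, near that of the 592 IL-1β cells of the cluster at 83.4, and away from that of E0 at 26.7. Chil1 was left out of the genes used for clustering, but genes that vary with it were not.

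**Figure D1:**
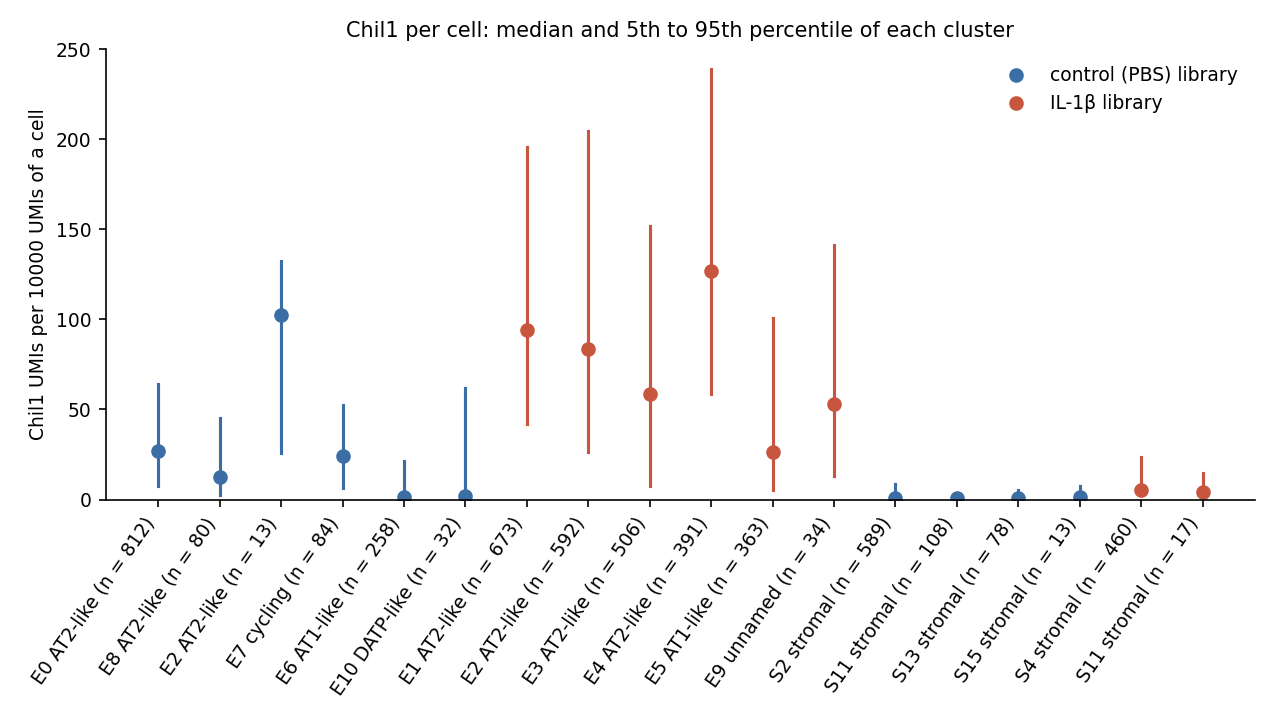
Chil1 UMIs per 10000 UMIs of a cell (vertical axis) in each cluster of each library with at least 10 cells (horizontal axis, with class and number of cells); points are medians, lines run from the 5th to the 95th percentile of cells, control in blue and IL-1β in red. The 4 large IL-1β AT2-like clusters have medians of 58.8 to 126.9, and the 13 control cells in E2 have a median of 102.7.

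In AT1-like cells Chil1 was 483 CPM in the control (461 to 506) and 3628 CPM under IL-1β (3575 to 3681), a ratio of 7.51 (7.16 to 7.89). It was the 1 member with at least 100 UMIs in that class, where 3.89% of 7840 genes passed 2-fold higher and 2.32% passed 2-fold lower. The median control AT1-like cell had 1.24 UMIs per 10000, close to the median stromal cell of the same library at 1.02. Under IL-1β the median AT1-like cell had 25.7 per 10000 and the median stromal cell 5.26. The IL-1β AT1-like cluster E5 also had markers of DATPs among its leading genes, AW112010 and Cldn4, and scored 0.820 on DATP and 0.793 on AT1 markers. The control AT1-like cluster E6 had none among its leading genes and scored 0.391 and 1.00, so the AT1-like ratio compares clusters that differed in DATP markers. The 32 control DATP-like cells had 1454 CPM and the 84 control cells of the cycling cluster, which also carried AT2 markers, 2609 CPM. The IL-1β library had 1 DATP-like cell, under a rule that gave the names AT2-like and AT1-like first. Its clusters E3 and E5 scored highest on DATP markers but were named AT2-like and AT1-like. Numbers of DATP-like cells can therefore not be compared between the libraries.

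Stromal cells also held Chil1 transcripts, 211 CPM in the control and 715 CPM under IL-1β, a ratio of 3.39 (3.24 to 3.54). There 1 of the 2 members with at least 100 UMIs, Chil1, passed 2-fold higher, against 3.64% of 10078 genes, and none passed 2-fold lower, against 10.2%. The median log2 ratio of all genes in stromal cells was -0.32. The stromal Chil1 level was 6.68% of the AT2-like level in the control (6.43% to 6.94%) and 6.88% under IL-1β (6.71% to 7.04%). For surfactant protein C (Sftpc), a transcript of AT2 cells, the same percentage was 3.83% in the control and 6.39% under IL-1β. Of the other AT2 markers and Lyz2, Abca3 was at 7.995% and Etv5 at 17.3% in the control, and the rest lay between 3.03% and 3.87%. Control stromal Chil1 was therefore above Sftpc and most of these genes. Under IL-1β Lamp3 was at 7.58%, Abca3 at 16.7% and Etv5 at 23.1%, and the rest lay between 6.45% and 6.68%. Chil1 at 6.88% was thus again above Sftpc and most of these genes, though some intervals overlapped. The part of free RNA in the stromal level was not tested.

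**Figure D2:**
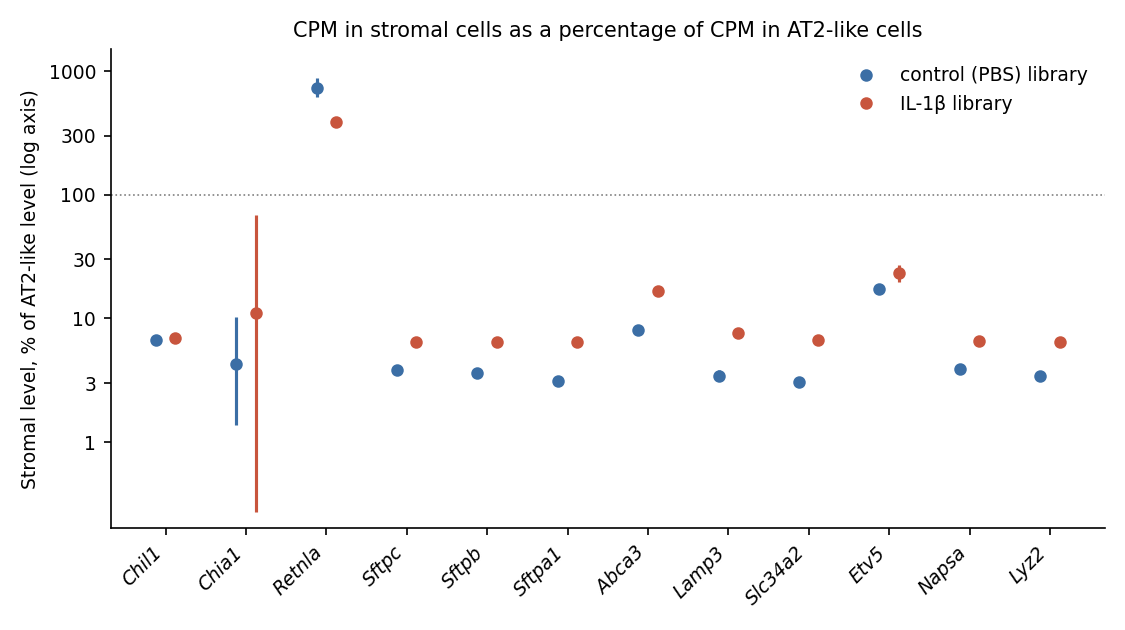
Level in stromal cells as a percentage of the level in AT2-like cells of the same library (vertical log axis), for 3 members, 8 AT2 markers and Lyz2 (horizontal axis); points are ratios of CPM, lines exact 95% intervals, the dotted line marks 100%. In the control Chil1 at 6.68% lies above the AT2 markers and Lyz2 other than Abca3 and Etv5, and Retnla lies above 100% in both libraries.

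Genes linked to Chil1 in the literature as its receptors or partners were taken from a list of 5. This list and the gene lists below were chosen with earlier results of these data known, so nothing is read from their counts. In AT2-like cells 3 of the 5 had at least 100 UMIs, of which 2 were at least 2-fold higher and none was 2-fold lower, against 7.76% and 2.44% of all genes compared, with a median log2 ratio of 1.17. These 2 were Cd44, a hyaluronan receptor, at 97.3 and 358.4 CPM, and Lgals3, the lectin galectin-3, at 161.9 and 363.5 CPM. Tmem219, a co-receptor, was 59.4 CPM in the control and 54.9 CPM under IL-1β. Il13ra2, the receptor subunit reported to bind Chil1 together with Tmem219, had 2 UMIs in the control and 41 under IL-1β, and Ptgdr2 had none in either.

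Chia1, the true chitinase, was the member with the lower level in the IL-1β library. In AT2-like cells it was 8.57 CPM in the control (7.06 to 10.3) and 0.949 CPM under IL-1β (0.608 to 1.41). The control level was 9.02 times the IL-1β level (5.77 to 14.7), a log2 ratio of -3.17. These values rest on 113 UMIs in the control and 24 under IL-1β. The share of AT2-like cells with at least 1 UMI was 9.58% in the control (exact Clopper-Pearson 95% interval 7.75% to 11.7%) and 1.11% under IL-1β (0.712% to 1.65%). The median depth of these cells was 13964.5 and 11154 UMIs, and after thinning to 5000 UMIs the expected shares were 3.76% and 0.448%. All thinned shares here leave out cells of fewer than 5000 UMIs, which were 21 control and 5 IL-1β AT2-like cells.

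The AT2-like shares were set beside those of stromal cells, which rest on 5 positive control cells and 1 positive IL-1β cell. The part of free RNA in these stromal counts was not tested. Stromal cells with a Chia1 UMI made up 0.630% in the control, at a median depth of 15741 UMIs, and 0.209% under IL-1β, at 14828 UMIs. Under IL-1β the interval of the AT2-like share overlapped that of the stromal share, 0.0053% to 1.16%, whereas in the control it did not. The levels were apart in both libraries, since the IL-1β stromal level was 0.105 CPM (0.0027 to 0.587), or 11.1% of the AT2-like level (0.27% to 68.0%). Each of the 24 positive IL-1β AT2-like cells held exactly 1 UMI, as did 73 of the 87 positive control cells.

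Within the control library Chia1 differed among epithelial clusters. It was highest in the 84 cycling cells, at 27.6 CPM (20.3 to 36.5), which was 3.22 times the AT2-like level (2.25 to 4.55). Sftpc in the same cells was 0.771 and Chil1 0.826 times the AT2-like level. Chia1 was found in 22.6% of cycling cells (14.2% to 33.0%), or 7.66% after thinning, and 3 cells held 56.2% of the UMIs, the highest of them 21. The 32 DATP-like cells had 25.3 CPM (13.1 to 44.2), from 12 UMIs in 5 cells. E8, the AT2-like cluster led by Scgb1a1, had 14.2 CPM (8.10 to 23.0) and E0 had 8.21 CPM (6.66 to 10.0), intervals that overlapped. AT1-like cells had 3.20 CPM (1.66 to 5.60), below E0.

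Under IL-1β the clusters did not separate by Chia1. The 4 AT2-like clusters and the AT1-like cluster had 0.736 to 1.196 CPM with overlapping intervals, and the unnamed cluster E9, led by Ccl20 and Spib, had 5.57 CPM from 3 UMIs. AT1-like cells as a class had 1.00 CPM under IL-1β (0.326 to 2.34), so that the control level was 3.19 times higher (1.05 to 11.6). The 13 control cells in E2 had no Chia1 UMI, but a count of 0 there allows up to 13.1 CPM, which is above the level of E0. Chil1 was also compared between cells with and without a Chia1 UMI. Control AT2-like cells with a Chia1 UMI had a median of 26.2 Chil1 UMIs per 10000, and the 821 cells without one had a median of 26.1. In control cycling cells the medians were 19.3 in 19 positive cells and 24.3 in the 65 others. The positive AT2-like cells were deeper, at a median of 17819 against 13803 UMIs, and 73 of these 87 cells held 1 Chia1 UMI. With so few Chia1 UMIs, whether the 2 genes move together from cell to cell cannot be read from these medians.

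**Figure D3:**
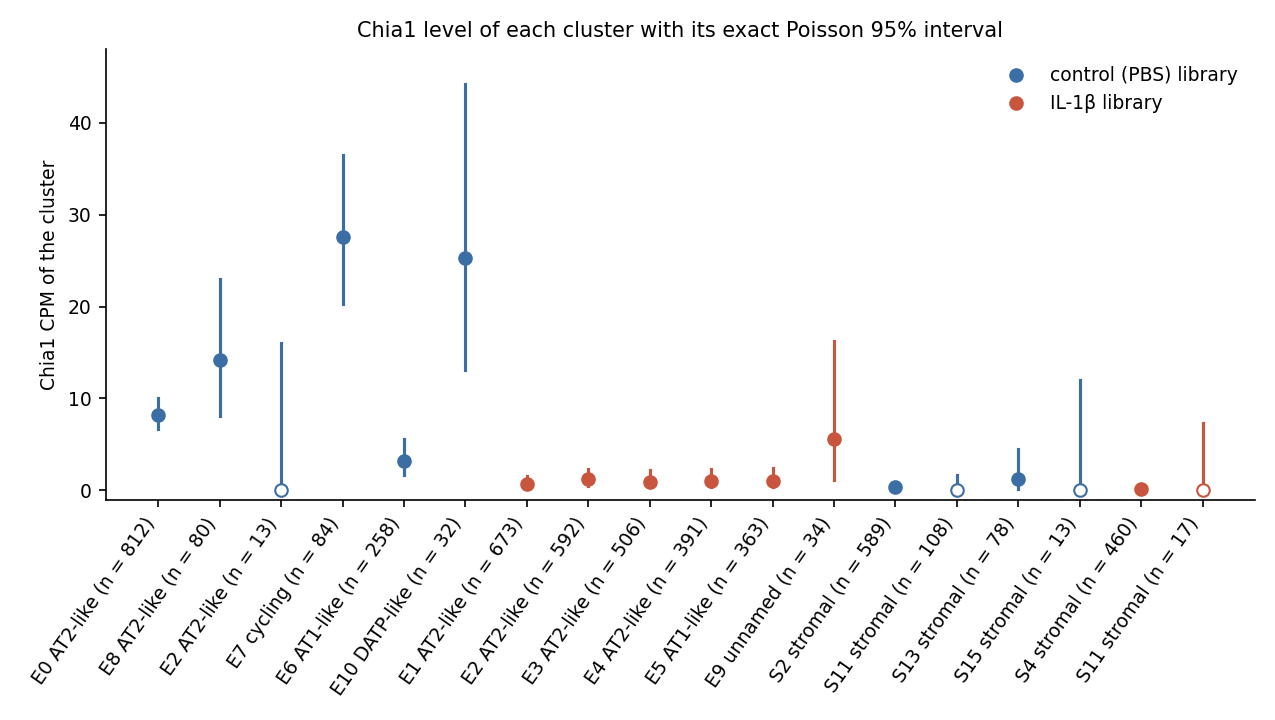
Chia1 CPM (vertical axis) of each cluster of each library with at least 10 cells (horizontal axis, with class and number of cells); lines are exact Poisson 95% intervals, open points are clusters with no UMI, control in blue and IL-1β in red. The control cycling cells at 27.6 CPM and DATP-like cells at 25.3 CPM stand above the IL-1β clusters, whose AT2-like values are 0.736 to 1.196 CPM.

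Chil3 was at the limit of detection in each class of both libraries. A single UMI was found in each of 2 control cells and 2 IL-1β cells, and in no other. The level in AT2-like cells was 0.0758 CPM in the control and 0.0791 CPM under IL-1β, from 1 and 2 UMIs, and the ratio of 1.04 had an interval from 0.0543 to 61.6. Chil4, the close relative of Chil3, had no UMI in AT2-like cells of either library, nor did Chil5 or the macrophage chitinase Chit1.

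Macrophages, the usual source of Chil3, were near absent from the organoids. A cluster of 4 control cells was led by macrophage markers, and these cells, at 6504 to 23774 UMIs each, had no UMI of Chil3, Retnla or Chia1. A count of 0 in these cells allows up to 51.8 CPM, which is above the Retnla level of AT2-like cells in both libraries. The summed level of 12 macrophage markers was 6917 CPM in those 4 cells. In AT2-like cells it was 12.96 CPM in the control, with 3 markers at 0, and 43.8 CPM under IL-1β, with 6 at 0. Of the latter, 43.1 CPM was Cd68, a lysosomal protein of macrophages that other cells also express, and Adgre1, Siglecf and Itgax were at 0 in AT2-like cells of both libraries.

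For Retnla, unlike Chil1 and Chia1, the level in stromal cells was above that in AT2-like cells, and a few cells held most of the transcripts. In stromal cells it was 81.7 CPM in the control (77.0 to 86.7) and 146.9 CPM under IL-1β (139.3 to 154.8), a ratio of 1.80 (1.66 to 1.95). In AT2-like cells it was 11.1 CPM (9.42 to 13.1) and 38.2 CPM (35.8 to 40.7), a ratio of 3.43 (2.88 to 4.10), which was 7.40 when the class was taken cell by cell from Sftpc and stromal markers. In AT1-like cells it was 7.21 CPM (4.75 to 10.5) and 9.04 CPM (6.59 to 12.1), and the interval of that ratio, 0.761 to 2.10, included 1. The stromal level was 733.2% of the AT2-like level in the control and 384.8% under IL-1β.

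Most of the AT2-like difference rested on 6 cells. In the IL-1β library 6 of the 2164 AT2-like cells had at least 10 Retnla UMIs and held 608 of the 965 UMIs of the class, or 63.0%. Their counts were 317, 178, 51, 41, 11 and 10 UMIs. The first is 20614 CPM of a cell with 15378 UMIs. In the control 1 of the 908 AT2-like cells reached 10 UMIs, with exactly that count, and it also had 82 collagen UMIs. Cells with at least 10 UMIs made up 0.110% of control AT2-like cells (0.0028% to 0.612%). Under IL-1β they made up 0.277% (0.102% to 0.603%), and these intervals overlapped. Over all epithelial cells the shares were 0.311% in the control (0.0849% to 0.795%) and 0.349% under IL-1β (0.160% to 0.661%). The control share includes 1 cell of the unnamed cluster E9, with 12 UMIs.

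Without the AT2-like cells of at least 10 Retnla UMIs the level was 10.4 CPM in the control (8.75 to 12.3) and 14.2 CPM under IL-1β (12.7 to 15.7). The log2 ratio was then 0.44 (0.16 to 0.74) in place of 1.78, and leaving these cells out was chosen after the values were seen. The 6 cells lay in E1, with 4 of them, and in E4, with 2. The level was 83.3 CPM in E1 and 28.8 CPM in E4, while E2 and E3 were at 11.2 and 11.7 CPM, against 11.5 CPM in the control cluster E0.

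The AT2-like cells with high Retnla in the IL-1β library held few collagen transcripts. The 6 cells had 347 to 1831 Sftpc UMIs, against a median of 664 in the other AT2-like cells and 26 to 428 in stromal cells of high Retnla. They had 1 to 9 UMIs of Epcam, the epithelial adhesion molecule. They had 0 or 1 collagen UMI each, against 10 to 313 in the 25 stromal cells of that library with at least 10 Retnla UMIs. Those stromal cells had a median of 32894 UMIs and at most 6 Epcam UMIs. No UMI of the macrophage markers other than Cd68 and Csf1r was found in any of the 6 AT2-like cells. Cd68 and Csf1r were left out of that count.

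In stromal cells, too, Retnla lay in a minority. At least 10 UMIs were found in 28 of 794 control stromal cells (3.53%, 2.36% to 5.06%) and in 25 of 478 under IL-1β (5.23%, 3.41% to 7.62%). These cells held 69.6% of the Retnla UMIs of stromal cells in the control and 85.9% under IL-1β. The highest control cell had 162 UMIs and the highest IL-1β cells had 261 and 253. Without these cells the stromal level was 26.0 CPM in the control (23.3 to 28.9) and 22.9 CPM under IL-1β (19.8 to 26.3), intervals that overlapped. The cut of 10 UMIs is a count that is not scaled to depth. Control stromal cells that reached it had a median of 18367.5 UMIs, against 15563 in the others. Under IL-1β these medians were 32894 and 14246 UMIs.

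Stromal clusters differed in Retnla within a library. The main control cluster S2, led by Dio2, had 93.7 CPM and the main IL-1β cluster S4, led by Mmp3, had 155.2 CPM. The smaller cluster S11, led by Acta2, which marks contractile cells, had 5.87 CPM in the control (3.13 to 10.0) and 3.99 CPM under IL-1β. After thinning, 14.7% of S2 cells and 14.5% of S4 cells had a Retnla UMI, against 2.50% of control S11 cells. In the control cluster S13 a single cell with 162 UMIs held most of the 177 UMIs of 78 cells.

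Low counts of Retnla were found in each of the larger epithelial classes. Of control AT2-like cells 10.5% had at least 1 UMI (8.55% to 12.6%), as had 9.62% of AT1-like cells (6.32% to 13.9%) and 11.9% of cycling cells (5.86% to 20.8%). Under IL-1β the shares were 13.6% of AT2-like (12.2% to 15.1%) and 10.8% of AT1-like cells (7.86% to 14.5%). Of the positive AT2-like cells 75.8% in the control and 83.3% under IL-1β held exactly 1 UMI. The summed level of 7 stromal markers in AT2-like cells was 416.9 CPM in the control and 474.6 CPM under IL-1β, with none at 0, and in AT1-like cells it was 3369 and 2245 CPM. Among IL-1β AT2-like clusters the share was 18.7% in E4 (14.9% to 22.9%). It was 11.7% in E2 (9.18% to 14.5%) and 10.5% in E3 (7.94% to 13.5%), intervals that did not overlap that of E4. These clusters differed in depth, with medians of 13210 UMIs in E4, 11767 in E1, 10637 in E2 and 10023.5 in E3. After thinning the shares were 8.09% in E4, 7.59% in E1, 5.735% in E2 and 5.59% in E3, values that have no interval. The AT2-like and AT1-like shares had overlapping intervals in each library, and the part of free stromal RNA in them was not tested.

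The highest Retnla level of any class was in 9 IL-1β cells of a secretory-like cluster, led by Scgb3a1, Reg3g and Bpifa1, genes of airway secretory cells, with Retnla itself among the 10 leading genes although it was left out of the clustering. Together these held 238 UMIs, or 1072 CPM (940.1 to 1217). The single cells had 126, 65, 43, 3, 1, 0, 0, 0 and 0 UMIs, so 3 of the 9 held almost all of them. They had 0 to 2 collagen UMIs each. Their Chil1 level was 3036 CPM and they had no UMI of Chil3 or Chia1. No such cluster was found in the control, where E8 was led by Scgb1a1 but kept AT2 markers, with Retnla at 8.86 CPM (4.25 to 16.3). In the control DATP-like cells, 2 of 32 cells with 25 and 21 UMIs held 93.9% of 49 Retnla UMIs.

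**Figure D4:**
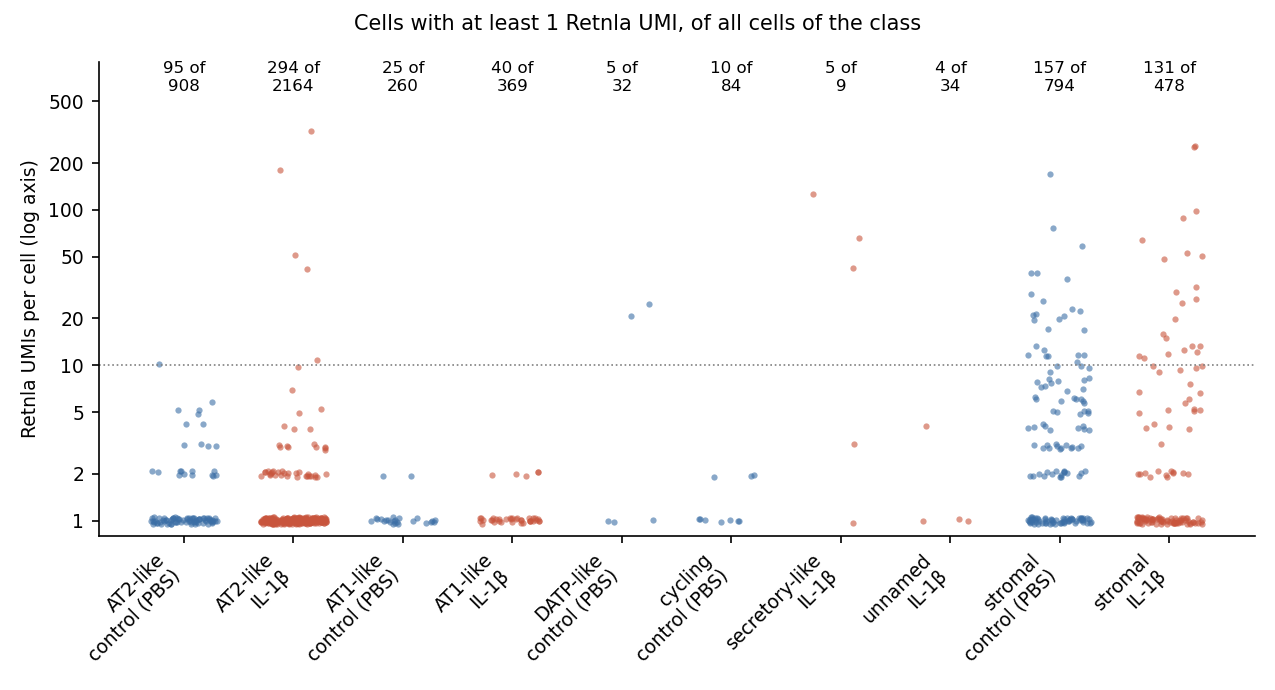
Retnla UMIs per cell (vertical log axis) for each cell with at least 1 UMI, by class and library (horizontal axis); each point is 1 cell, moved slightly sideways and up or down so that points can be told apart, with the number of such cells of all cells of the class above and a dotted line at 10 UMIs. Most epithelial points lie at 1 UMI. At 10 or more lie 6 AT2-like and 3 secretory-like IL-1β cells, and 1 AT2-like and 2 DATP-like control cells. Stromal cells of both libraries spread up to 162 and 261 UMIs.

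The other genes of both families were scarce. Of the 4 resistin-like genes Retnla was the 1 with at least 100 UMIs in AT2-like cells. Retn, which encodes the hormone resistin of fat cells, had 10 UMIs in control and 14 in IL-1β AT2-like cells, Retnlg had 3 and 2, and Retnlb had none. Of the 10 glycosyl hydrolase 18 genes 4 had at least 100 UMIs in AT2-like cells, 1 of them 2-fold higher and 1 2-fold lower, against 7.76% and 2.44% of all genes, with a median log2 ratio of 0.44. These were Chil1 and Chia1, members chosen on these values. The other 2 were Chid1, at 19.5 and 24.01 CPM, and Ctbs, a lysosomal chitobiase, at 5.53 and 8.31 CPM.

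The type 2 cytokines that usually accompany Retnla and Chil3 were at or near 0 in AT2-like cells. Il4, Il9 and Il25 had no UMI there, Il5 and Il13 had 1 each, and the alarmin Tslp had 8 in the control and 19 under IL-1β. Il33, another alarmin, was 284.0 CPM in the control and 264.1 CPM under IL-1β and was the 1 of 7 ligands with at least 100 UMIs. Of 7 receptor and signaling genes 5 had at least 100 UMIs in AT2-like cells, and 1 was 2-fold higher and none 2-fold lower, against 7.76% and 2.44% of all genes. This was Il4ra, at 20.5 and 43.3 CPM. Il13ra1, the partner of Il4ra in the receptor for both cytokines, was 21.5 and 39.0 CPM, and Stat6, its signal transducer, 31.9 and 35.6 CPM.

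Of 17 genes known as targets of type 2 cytokines 3 had at least 100 UMIs in AT2-like cells, and 2 were 2-fold higher and none 2-fold lower, against 7.76% and 2.44% of all genes. These were Arg1, arginase 1, at 4.62 and 16.1 CPM, and Cish, a suppressor of cytokine signaling, at 20.2 and 40.4 CPM. The third, Postn, which encodes periostin, was 14.8 and 15.1 CPM. In stromal cells 4 of the 17 had at least 100 UMIs, and none was 2-fold higher and 2 were 2-fold lower, against 3.64% and 10.2% of all genes. The 2 lower genes were Ccl11, an eosinophil chemokine, at 194.7 and 81.0 CPM, and Socs1 at 12.6 and 4.84 CPM. Of the ligands and of the receptor and signaling genes with at least 100 UMIs in stromal cells, 1 of 2 and 2 of 5 were 2-fold higher and none 2-fold lower. These were Tslp, at 6.19 and 16.2 CPM, Il4ra, at 19.9 and 43.1 CPM, and the Il33 receptor Il1rl1, at 33.2 and 105.2 CPM.

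Of the listed regulators of the members, 8 of the 9 in the files had at least 100 UMIs in AT2-like cells and none passed 2-fold in either direction, against 7.76% of all genes higher and 2.44% lower, with a median log2 ratio of 0.40. Cebpa, a factor of mature AT2 cells, was 296.9 and 230.6 CPM, and Stat3 was 137.0 and 139.2 CPM. Cebpb was 79.8 and 124.3 CPM, Hif1a 71.5 and 122.3 CPM, and Nfkb1 50.03 and 88.3 CPM. In stromal cells 1 of the 8 was 2-fold lower and none higher, against 10.2% and 3.64% of all genes, namely Cebpa, at 86.4 and 23.2 CPM.

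Genes with a pattern most like that of each member were ranked by Pearson correlation over 15 groups of cells, each a cluster of 1 library with at least 20 cells, among 11529 genes. For Chil1 these were Rasd2 (r = 0.98), Rab15, Gnptab, Tmem82 and Mlph (r = 0.96 each). For Chia1 they were Slc18a1 (r = 0.93), Anp32e, Tmem183a, Gas2l1 and Kpna2, of which Kpna2 and Anp32e are known for their levels in dividing cells. For Retnla they were Ces1f (r = 0.85), Mgat5, Sufu, Col18a1 and Diexf. In some of these groups 3 cells held most of the Retnla UMIs, namely 95.9% in control E10, 96.6% in control S13 and 78.9% in IL-1β E1. Of the Chia1 UMIs, 3 cells held 56.2% in control E7, the cycling cluster, and 83.3% in control E10. The groups share 2 libraries and their depth, so that these values describe the pattern and carry no test. Over single IL-1β AT2-like cells no gene exceeded r = 0.14 with Retnla (Ngb), and that value was 0.07 without the 6 cells of 10 or more UMIs.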

How the data were processed

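The authors deposited raw UMI counts per gene and cell for 2 libraries, made per the labels and methods with Cell Ranger on GRCm38 from the 10x 3′ kit (the submitters' processing notes also list mm9 and Scanpy 1.3.6). The study's own limits on cells were applied: over 500 and under 7000 detected genes, and over 2000 UMIs. Clusters were found with scanpy 1.11.5 and the Leiden algorithm (leidenalg 0.10.2, resolution 1.0, 50 components, 15 neighbors), with the 4 members left out, first to set aside clusters with a mean Epcam under 0.5 per 10000 and then among epithelial cells. Cluster names came from fixed marker lists by a rule set after the clusters were seen: AT2-like or AT1-like at a scaled marker score of at least 0.6, and cycling, secretory-like or macrophage-like with 3 markers among the top 10 genes. DATP-like was given last, to clusters that met none of these. Such a cluster had its highest score on DATP markers and a DATP marker among its top 10 genes. The study's methods removed doublets with scrublet, whereas here none were removed, except in an alternative that left out the 5% of cells with the highest scrublet scores.

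Levels are summed UMIs of a class per 1000000 (CPM) with exact Poisson 95% intervals, shares have exact Clopper-Pearson intervals, and ratios have exact conditional intervals. With 1 library per condition there is no test. Genes with at least 100 UMIs over both libraries were compared against a 2-fold threshold, and a count of 0 was taken to allow 3. The code for ratios, intervals and thinning was run first on simulated data with known answers. The members and gene lists were chosen with earlier results of these data known. The named genes are the members, those lists and the 5 genes most like each member on log2(CPM + 1). Cebpd is not analysed here. Positions are those of GENCODE M21.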

Additional observations from a re-analysis of the deposited data

Results flagged for a closer look

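Retnla in the 9 secretory-like cells of the IL-1β library, a class with no counterpart in the control library and outside the comparisons between conditions, was 1072 CPM. This was above the 11.1 CPM of control AT2-like cells, but 3 of the 9 cells held 98.3% of the Retnla UMIs and 4 held none.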

How the results depend on the processing

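Chia1 stayed lower in the IL-1β AT2-like cells under all 11 alternatives, with log2 ratios from -3.43 to -2.64. Chil1 stayed higher under its 11, from 1.57 to 1.90. Its counting interval is narrow, so 8 of them lay outside it: 1.76 at resolution 0.5, 1.77 at resolution 2.0, 1.82 with Louvain, 1.79 with another seed, 1.90 with each library clustered separately, 1.57 with scaling that left out surfactant protein, mitochondrial and ribosomal protein genes, 1.86 with the class taken cell by cell and 1.84 without E3. Retnla stayed higher under its 12, with 1.44 at resolution 0.5, 2.17 at resolution 2.0, 1.46 with another seed, 2.04 with separate clustering, 2.89 cell by cell and 0.44 without cells of 10 or more Retnla UMIs, the last because it leaves out the cells that hold most transcripts. For the others the cause was not tested. Chil3 turned from 0.06 to -0.81 with another seed and to -0.089 with the other scaling, on at most 3 UMIs, and cell by cell it had no count in 1 library. Thinning to 5000 UMIs lowered the share of Retnla-positive AT2-like cells to 4.10% and 6.73% (control and IL-1β) and that of Chia1 to 3.76% and 0.448%. Leaving out E3 and the cells of 10 or more UMIs were chosen after seeing the data. No paired analysis was possible because each condition has 1 library, which is also why no replicate could be left out. Chil3 in AT2-like cells rests on 1 UMI in the control and 2 under IL-1β, and Chia1 in IL-1β AT2-like cells on 24. In classes of few cells a Chil3 count of 0 allows a higher level.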

Other observations

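Retn, the resistin gene itself, lay mostly in 1 small group of stromal cells. Of the 69 Retn UMIs of control stromal cells 59 lay in S15, a cluster of 13 cells led by Fabp4, Cfd and Adipoq, genes of fat cells, and each of the 13 cells had at least 1 UMI. The level there was 192.6 CPM against 1.07 CPM in the 589 cells of S2. The IL-1β library had no cell in S15 and 6 Retn UMIs in its stromal cells. Retnla in S15 was 107.7 CPM (74.2 to 151.3), from 3 of the 13 cells. S15 was chosen after its values were seen.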
